A study of Mus musculus with 6 samples.

Results

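*Sncb*, *Sncg* and the neurexophilins *Nxph1*, *Nxph2*, *Nxph3* and *Nxph4* were examined in embryonic mouse hearts with and without the muscle lysine methyltransferase SMYD1. They are 6 of the 54532 genes in the table of raw counts and were found there by symbol. *Sncb* and *Nxph4* were chosen by their measured counts, because they had been seen among the largest differences between these same hearts, so their folds are a description and carry no *P*-value. The other 4 genes were added because they belong to the same families, and their values played no part in the choice.

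RNA-seq was performed on 6 individual hearts at embryonic day (E) 9.5. The *Smyd1-KO* group was 3 hearts from embryos homozygous for a conventional null allele of *Smyd1*, bred from *Smyd1*+/- mice, in which every cell of the embryo lacks the functional gene. The WT group was 3 hearts from wild-type embryos of the same stage. No agent was given, embryos of either sex could enter, and RNA was extracted from individual hearts.

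Synucleins are small proteins that bind the curved membranes of synaptic vesicles, and they are best known from nerve endings. *Sncb* encodes beta-synuclein, found mainly in presynaptic terminals of the brain, and *Sncg* encodes gamma-synuclein, found mainly in sensory and autonomic neurons. Neurexophilins are secreted glycoproteins that bind the alpha forms of neurexins, cell-surface receptors of presynaptic membranes. Both families are studied mostly in neurons, and the E9.5 heart tube is only beginning to receive neural crest cells.

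Total counts per heart ran from 48627825 to 64217529, and values are given below as reads per 1000000 counted (CPM) after TMM scaling, or as mean ± SD of 3 hearts. *Smyd1* itself measured 101, 222 and 206 CPM in *Smyd1-KO* hearts 1 to 3, against 414, 379 and 270 CPM in WT hearts 1 to 3. All *Smyd1-KO* values lay below all WT values, with a log2 fold change of −1.01 (SE 0.300, edgeR adjusted *P*=0.0973). Defining cardiomyocyte genes were abundant in every heart, with 10 of them summing to between 8903 and 20026 CPM. *Smyd1-KO* heart 1 stood apart from the others: 10 neural progenitor genes summed to 313 CPM there, against 55.2 to 120 CPM elsewhere. *Sox1*, a marker of neural plate and tube, was 29.9 CPM in that heart and at most 0.203 CPM in the other 5. Its cardiomyocyte sum of 8903 CPM was the lowest of the 6, so results are also given without it.

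Across the whole table, 19372 genes passed the filter on low counts. A gene was called when its adjusted *P* in edgeR's quasi-likelihood test was under 0.05 and its absolute log2 fold change was at least 0.5. This held for 4.28% of tested genes, with 2.86% higher and 1.42% lower in *Smyd1-KO* hearts. Every *Smyd1-KO* heart exceeded every WT heart for 15.9% of tested genes, and every one fell below for 15.5%. At an unadjusted *P* under 0.05 edgeR gave 25.1% of tested genes, 13.1% higher and 11.9% lower. DESeq2, at the same thresholds as the edgeR calls, called 5.98% higher and 3.31% lower, and the counts for gene lists below are to be read against these shares. *Sncb*, *Sncg*, *Nxph3* and *Nxph4* were tested, whereas *Nxph1* and *Nxph2* had too few reads. *Sncb* passed the filter through the *Smyd1-KO* hearts alone, so it could only be tested because it was high there. Of the 4 tested members, *Sncb* and *Nxph4* passed both thresholds upwards, as their choice fixed, and *Sncg* and *Nxph3* did not pass.

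*Sncb* (ENSMUSG00000034891) lies on the minus strand at chr13:54758860-54766595 in GRCm38, and none of its exons overlaps another annotated gene. Its reads numbered 230, 301 and 265 in *Smyd1-KO* hearts 1 to 3, and 4, 8 and 1 in WT hearts 1 to 3. After scaling these were 4.73, 5.09 and 4.64 CPM against 0.0671, 0.126 and 0.0150 CPM. The 3 *Smyd1-KO* hearts were nearly level with each other, and all 3 WT hearts were close to the limit of detection, where 3 reads correspond to between 0.0450 and 0.0617 CPM. The group means were 4.82 ± 0.238 and 0.0694 ± 0.0555 CPM, a ratio of 69.5. The fitted log2 fold change was 6.09 (SE 0.486), the second largest positive value among all tested genes after that of *Zic1*. Summed over hearts, 796 reads (95% Poisson interval 742 to 853) stood against 13 (6.92 to 22.2), intervals that cover counting error only.

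*Sncb* was even across the *Smyd1-KO* hearts. The coefficient of variation was 4.93%, where counting error alone gives 6.16%, and the highest heart exceeded the lowest 1.10-fold. Heart 1, with its excess of neural progenitor RNA, held an amount of *Sncb* between those of hearts 2 and 3, and the part of that RNA in its level was not tested. Leaving that heart out gave a log2 fold change of 6.10, and leaving out any heart in turn gave 5.61 to 6.84. In a search made after the values had been seen, *Sncb* was the only gene of the 54532 with a WT mean under 0.1 CPM and at least 1 CPM in every *Smyd1-KO* heart. Raising the WT limit to 0.2 CPM added *Creg2* and *Adm2*. The 2 added genes measured 1.01 to 1.49 CPM and 2.12 to 4.30 CPM in *Smyd1-KO* hearts, respectively.

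The plot of log2 CPM by heart sets all 6 members side by side.

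**Figure D1:**
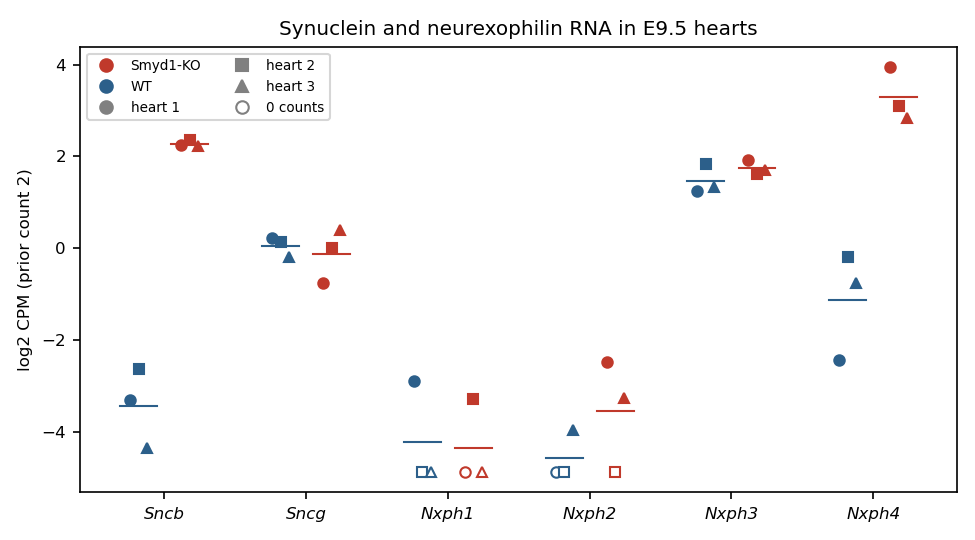
RNA level of each member in each heart as log2 CPM with a prior count of 2 (y axis), by gene (x axis). Red points are *Smyd1-KO* hearts, blue points WT hearts, the symbol gives the heart number, open symbols mark 0 reads and horizontal lines are group means. *Sncb* and *Nxph4* show separated groups, with *Smyd1-KO* means of 4.82 and 10.3 CPM, while *Sncg* and *Nxph3* overlap and *Nxph1* and *Nxph2* lie at the floor.

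The sequence upstream of *Sncb* is shown because its RNA was near the floor in WT hearts and at an even level in *Smyd1-KO* hearts, and that of *Sncg* because it is the family member that was present in both groups. Both were cut from the 250 bases before the RefSeq start site in GRCm38.p6, written 5′ to 3′ along the gene. For *Sncg* the last 120 of these bases lie inside the longer GENCODE transcript and are not shown. The *Sncb* stretch is chr13:54766596-54766845 and the *Sncg* stretch, 130 bases, is chr14:34374790-34374919, each on the minus strand. Capitals mark the core of the hypoxia response element, ACGTG or GCGTG, which hypoxia-inducible factors recognise and which is printed here as its reverse complement.
Sncb: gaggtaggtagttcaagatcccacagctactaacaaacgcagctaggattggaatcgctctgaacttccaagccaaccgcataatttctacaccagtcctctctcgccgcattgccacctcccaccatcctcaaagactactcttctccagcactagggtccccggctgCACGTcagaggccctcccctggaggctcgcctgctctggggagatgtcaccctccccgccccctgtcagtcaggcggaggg
Sncg: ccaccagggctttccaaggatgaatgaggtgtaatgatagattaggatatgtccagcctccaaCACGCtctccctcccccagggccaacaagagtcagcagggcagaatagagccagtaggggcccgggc
*Sncb* held 1 match to ACGTG, on the reverse strand, starting 81 bases before the start site. *Sncg* held 1 match to GCGTG, also on the reverse strand, starting 187 bases before the RefSeq start and 67 bases before the GENCODE start.

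Such short cores are common. Over 32851 RefSeq promoters of 300 bases (250 before and 50 from the start site on), 19.6% held ACGTG on either strand, 32.4% held GCGTG and 43.8% held at least 1 of them. Promoter entries were found for 4 of the 6 members, those of *Sncb*, *Sncg*, *Nxph1* and *Nxph2*. Neither core was found in *Nxph1* or *Nxph2*. The *Nxph1* window, chr6:8949769-8950068, lies wholly inside the gene as GENCODE annotates it, so bases before the GENCODE start were not searched. The amino acid response sequence TGATGNAA, bound by ATF4 with its partners, was in none of the 4 windows and in 3.97% of all. Both parts of the RE1 element, through which REST silences neuronal genes in other tissues, were searched as TCAGCACC and GGACAGC. TCAGCACC was in none of the 4 and in 1.65% of all, and GGACAGC was found once, in *Nxph2*, and in 6.56% of all. GC content of the 300 bases was 62.0% for *Sncb* and 61.3% for *Sncg*, against a median of 52.7% over all promoters. A match here is a description of letters and says nothing of binding.

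*Sncg* (ENSMUSG00000023064, chr14:34370274-34374789, minus strand) was present at a low level in both groups. It had 27, 57 and 73 reads in *Smyd1-KO* hearts and 67, 67 and 56 reads in WT hearts. These gave 0.555, 0.964 and 1.28 CPM against 1.12, 1.06 and 0.841 CPM. The *Smyd1-KO* hearts lay on both sides of the WT hearts, with heart 1 lowest. Means were 0.933 ± 0.363 and 1.01 ± 0.148 CPM, and the log2 fold change of −0.10 (SE 0.331, edgeR adjusted *P*=0.874) did not pass. Without *Smyd1-KO* heart 1 the estimate turned to 0.16 (adjusted *P*=0.746). The *Smyd1-KO* hearts varied by 38.9%, against 13.9% from counting alone.

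*Nxph4* (ENSMUSG00000040258) lies on the minus strand at chr10:127525473-127534559. It had 746, 505 and 403 reads in *Smyd1-KO* hearts 1 to 3 and 9, 53 and 37 reads in WT hearts 1 to 3. The scaled values were 15.3, 8.54 and 7.06 CPM against 0.151, 0.835 and 0.556 CPM. All 3 *Smyd1-KO* hearts were far above all WT hearts, with *Smyd1-KO* heart 1 highest and WT heart 1 lowest. Means were 10.3 ± 4.42 and 0.514 ± 0.344 CPM, a ratio of 20.1, and the fitted log2 fold change was 4.31 (SE 0.591). This was the seventh largest positive value of all tested genes and lay between those of *Ndufa4l2* at 4.37 and *Chac1* at 4.26.

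*Nxph4* varied widely among hearts. The coefficient of variation in *Smyd1-KO* hearts was 42.8%, against 4.28% from counting alone, and the highest heart exceeded the lowest 2.17-fold. Among WT hearts the highest exceeded the lowest 5.53-fold. *Nxph4* was highest in the heart that also had the most neural progenitor and neuron RNA, and the part of that RNA in its level was not tested. Hearts 2 and 3 held 8.54 and 7.06 CPM, with neural progenitor sums of 101 and 55.2 CPM against 73.8 to 120 CPM in WT hearts. *Msi1* made up 54.9 to 84.8 CPM of the WT sums. In heart 2 *Sox1*, *Sox2*, *Sox3*, *Neurog1*, *Neurog2* and *Hes5* lay above every WT heart, and *Pax3*, *Pax6*, *Olig2* and *Msi1* did not. *Sox2* was 32.8 CPM there, against at most 24.2 CPM in WT hearts. Without heart 1 the log2 fold change of *Nxph4* was 3.91. It ran from 3.90 to 4.84 over the 6 fits that left out 1 heart. *Nxph4* stayed past both thresholds in 4 of them, but not without WT heart 2 or WT heart 3. As it was chosen by its rise in these hearts, staying past the thresholds is a description and no test.

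*Nxph3* (ENSMUSG00000046719, chr11:95509845-95514570, minus strand) was the most expressed neurexophilin of the WT hearts per kilobase of exon. Reads were 182, 178 and 185 in *Smyd1-KO* hearts and 140, 224 and 165 in WT hearts, or 3.74, 3.01 and 3.24 CPM against 2.35, 3.53 and 2.48 CPM. WT heart 2 lay among the *Smyd1-KO* hearts, so the groups overlapped. Means were 3.33 ± 0.375 and 2.79 ± 0.647 CPM, and the log2 fold change of 0.26 (SE 0.220, edgeR adjusted *P*=0.508) did not pass. Estimates without 1 heart ran from 0.16 to 0.46, and none of these passed.

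*Nxph1* (ENSMUSG00000046178, chr6:8948431-9249032, plus strand) and *Nxph2* (ENSMUSG00000069132, chr2:23321246-23401973, plus strand) were barely detected. *Nxph1* had 4 reads in *Smyd1-KO* heart 2, 6 reads in WT heart 1 and 0 in the other hearts. *Nxph2* had 7 and 4 reads in *Smyd1-KO* hearts 1 and 3, 2 reads in WT heart 3 and 0 elsewhere. Where a heart had 0 reads, 3 reads or 0.0450 to 0.0617 CPM bound the level. Two-sided exact permutation tests over hearts gave *P*=1 for *Nxph1* and *P*=0.4 for *Nxph2*, and 3 hearts against 3 cannot give less than 0.1.

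Levels were compared between members only per kilobase of exon, taken over the union of annotated exons. In WT hearts the order in CPM per kilobase was *Nxph3* at 1.33 ± 0.308, *Sncg* at 1.18 ± 0.174, *Nxph4* at 0.307 ± 0.205, *Sncb* at 0.0323 ± 0.0259, *Nxph1* at 0.00706 ± 0.0122 and *Nxph2* at 0.00388 ± 0.00672. *Nxph3* and *Sncg* did not differ beyond their spread, nor did *Nxph1* and *Nxph2*. In *Smyd1-KO* hearts the order was *Nxph4* at 6.16 ± 2.64, *Sncb* at 2.25 ± 0.111, *Nxph3* at 1.59 ± 0.178, *Sncg* at 1.09 ± 0.426, *Nxph2* at 0.0277 ± 0.0279 and *Nxph1* at 0.00474 ± 0.00822. *Nxph4* and *Sncb* thus stood below *Nxph3* and *Sncg* in WT hearts and above both in *Smyd1-KO* hearts. *Nxph3* and *Sncg* did not separate from each other beyond their spread in either group. Dividing by the longest transcript of *Sncb* instead, 1351 in place of 2145 bases, raised its *Smyd1-KO* level to 3.57.

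The 2 members that differed were set beside all other genes by the shape of their values over the 6 hearts. The measure was the root-mean-square difference of log2 CPM after subtracting each gene's WT mean, over 14698 tested genes with an average log2 CPM of at least 0. It uses the same contrast that chose the members, so genes with large differences must come out near them. The nearest to *Sncb* were *Ndufa4l2* at 1.10, *Adm2* at 1.19, *Nxph4* at 1.25, *Chac1* at 1.33 and *Ier3* at 1.56 log2 units. Nearest to *Nxph4* were *Esm1* at 0.635, *Ndufa4l2* at 0.838, *Chac1* at 0.935, *Nrn1* at 1.06 and *Ier3* at 1.11, and *Sncb* stood 12th. *Ndufa4l2*, a mitochondrial protein known as a hypoxia-inducible gene, and *Chac1*, a glutathione-degrading enzyme known as an ATF4 target, were on both lists, as was *Ier3*, an early stress-response gene. *Adm2* encodes a secreted vasoactive peptide, *Esm1* an endothelial proteoglycan and *Nrn1* a neurite-promoting protein. *Chac1* and *Nrn1* were lowest among *Smyd1-KO* hearts in heart 1, at 7.51 and 5.10 CPM, where *Nxph4* was highest. *Esm1* followed *Nxph4* more closely, at 10.96, 10.6 and 7.08 CPM in the *Smyd1-KO* group against 0.285, 0.803 and 1.25 CPM in WT hearts.

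Partners of the 2 families were taken as lists. The neurexins *Nrxn2* and *Nrxn3*, receptors of neurexophilins, were expressed at a low level, and neither passed edgeR's test. *Nrxn2* measured 6.66, 2.62 and 2.07 CPM in the *Smyd1-KO* group against 1.29, 1.72 and 1.40 CPM in WT hearts. *Nrxn3* measured 1.995, 3.13 and 2.01 CPM against 1.07, 1.39 and 1.28 CPM. For both genes every *Smyd1-KO* heart exceeded every WT heart. The log2 fold changes were 1.36 (SE 0.445, edgeR adjusted *P*=0.117) for *Nrxn2* and 0.93 (SE 0.254, adjusted *P*=0.0771) for *Nrxn3*, and DESeq2 called both, with adjusted *P* values of 0.0128 and 0.0144. In edgeR without *Smyd1-KO* heart 1 the estimates were 0.68 (adjusted *P*=0.126) for *Nrxn2* and 1.05 (adjusted *P*=0.0608) for *Nrxn3*. The median log2 fold change over all tested genes was −0.00255.

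Of 15 other neurexin ligands, 13 were tested and 0 were called by edgeR or DESeq2, with a median log2 fold change of 0.38, and 0.23 without *Smyd1-KO* heart 1. At an unadjusted *P* under 0.05 edgeR gave 3 higher and 2 lower, beside 25.1% of all tested genes in both directions. The most abundant were *Dag1*, dystroglycan of the basement membrane linkage, at 518 against 447 CPM, *Adgrl2* at 179 against 174 CPM and *Adgrl1* at 124 against 159 CPM, both latrophilin adhesion receptors. None of these 3 passed. Every *Smyd1-KO* heart lay above every WT heart for 2 of the 13 ligands and below for 2, near the shares of 15.9% and 15.5% over all tested genes.

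The 15 genes of presynaptic vesicles, among which synucleins act, were all tested, and edgeR called 0 in either direction. At an unadjusted *P* under 0.05 there were 3 higher and 1 lower, near the share of 25.1% over all tested genes, and DESeq2 called 1 lower, *Cplx1*, which clamps vesicle fusion and measured 0.945 against 1.93 CPM. Their median log2 fold change was −0.04, and −0.16 without *Smyd1-KO* heart 1. *Dnajc5*, a chaperone of synaptic vesicles, measured 263 ± 17.6 against 194 ± 4.47 CPM and had an adjusted *P* of 0.0321 in edgeR, but its log2 fold change of 0.44 was under the limit of 0.5. *Vamp2*, the vesicle SNARE, was 54.0 against 56.8 CPM, and *Sv2a*, a vesicle glycoprotein, was 40.2 against 52.3 CPM. The synaptic genes *Snap25* and *Syn1* reached no more than 0.740 and 1.46 CPM in any heart. *Sncaip*, which encodes the synuclein-binding protein synphilin, measured 7.94 ± 4.28 against 7.81 ± 1.03 CPM.

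*Rest*, the repressor of neuronal genes, and 7 of its corepressor genes were well expressed. *Rest* was 57.2 ± 2.01 against 53.0 ± 4.38 CPM, a log2 fold change of 0.11 (edgeR adjusted *P*=0.467). *Rcor2* was called, with 275, 246 and 212 CPM in the mutant hearts against 149, 169 and 174 CPM in WT hearts. The fold on the log2 scale was 0.58 (SE 0.118, edgeR adjusted *P*=0.0390), and the call held in 1 of the 6 fits without a heart, that without *Smyd1-KO* heart 3. Highest in the list were *Ehmt2*, a histone methyltransferase, at 266 against 276 CPM, *Rcor2*, and *Kdm1a*, a histone demethylase, at 207 against 202 CPM. The median log2 fold change of the 8 genes was 0.03, and −0.01 without *Smyd1-KO* heart 1.

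**Figure D2:**
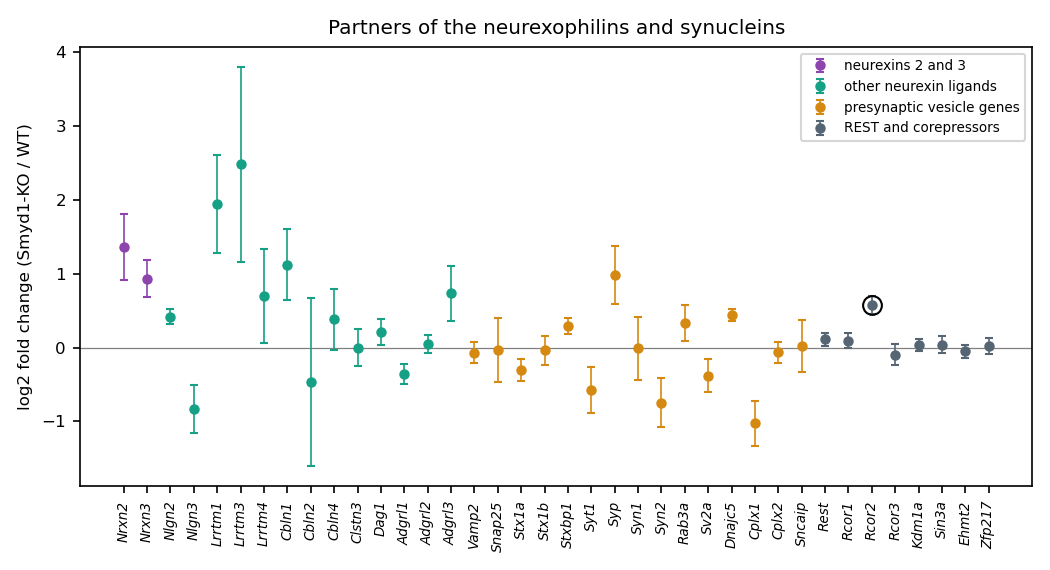
Log2 fold change of *Smyd1-KO* over WT hearts (y axis) for tested genes of the partner lists (x axis), with bars of 1 SE from the edgeR fit and colors for the 4 lists. The circled point is *Rcor2*, the called gene at 0.58. *Nrxn2* lies at 1.36 and *Nrxn3* at 0.93 with wide bars, and the presynaptic vesicle genes scatter around their median of −0.04.

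Markers of the other cells a dissected heart can hold were measured beside the members. In whole hearts, more cells of a type and more RNA per cell cannot be told apart. For the 15 neuron genes the summed level was 85.2 to 123 CPM in *Smyd1-KO* hearts and 74.5 to 78.6 CPM in WT hearts, and edgeR called 0 of the 14 tested. The median log2 fold change was 0.69, and 0.41 without *Smyd1-KO* heart 1, where 1 gene, *Prph*, was called higher. At an unadjusted *P* under 0.05 there were 4 higher and 1 lower, beside 13.1% and 11.9% of all tested genes, and DESeq2 called 4 higher, *Prph* and *Nefm* among them. *Gap43*, a growth cone protein, was the highest of them, at 42.9 to 64.8 CPM against 29.8 to 53.1 CPM, followed by the neurotrophic receptor gene *Ret* at 16.9 ± 14.8 against 15.8 ± 13.8 CPM. *Tubb3*, neuronal tubulin, was 4.87 ± 0.749 against 3.27 ± 1.18 CPM. The 10 neural crest and glial genes summed to 81.3 to 230 CPM against 93.6 to 126 CPM, with 0 of 10 called by edgeR or DESeq2 and 1 higher at an unadjusted *P* under 0.05. *Sox10*, their defining factor, was at 51.6, 20.1 and 1.56 CPM against 8.71 to 19.2 CPM, and the highest of the list were *Erbb3*, *Ednrb* and *Tfap2a*. Of the neural progenitor genes, led by *Msi1*, *Sox2* and *Sox3*, 8 were tested and edgeR called 0, with 4 higher at an unadjusted *P* under 0.05 (13.1% of all tested genes) and 1, *Neurog1*, called by DESeq2. Their median log2 fold change was 2.33, and 0.29 without *Smyd1-KO* heart 1.

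*Sncb* and *Nxph4* were thus compared by heart with these sums. Neural progenitor RNA summed to 313, 101 and 55.2 CPM in *Smyd1-KO* hearts 1 to 3, a 5.67-fold range. *Msi1* alone was 94.5, 47.0 and 35.8 CPM of these sums, and 54.9, 82.6 and 84.8 CPM in WT hearts 1 to 3. Over the same hearts *Sncb* differed 1.10-fold and *Nxph4* 2.17-fold, and the part of neural RNA in either level was not tested. Erythroid genes, led by the embryonic globins *Hba-x*, *Hbb-bh1* and *Hbb-y*, summed to 28.3, 283 and 164 CPM in the *Smyd1-KO* group against 750, 1002 and 961 CPM in WT hearts. Of these 10 genes edgeR called 3 lower, *Alas2* and *Kel* among them, beside 1.42% of all tested genes. DESeq2 called 7 lower, beside 3.31%. For 9 of them every *Smyd1-KO* heart lay below every WT heart, beside 15.5% of all tested genes. Without *Smyd1-KO* heart 1, 9 were called, and *Alas2* and *Kel* lost the call without any other heart. Their part in the levels of *Sncb* and *Nxph4* was not tested. The 10 endothelial genes, highest for *Kdr*, *Cdh5* and *Tie1*, had 1 call, *Cldn5*, a tight junction gene, at 21.6 against 10.8 CPM (log2 fold change 0.996, edgeR adjusted *P*=0.0320), a call that held without *Smyd1-KO* heart 1 or WT heart 1 but not without any other heart. DESeq2 called 2 of these 10 higher, *Cldn5* and *Kdr*, and 1 lower, *Nfatc1*, a valve endocardium factor at 23.5 against 41.9 CPM that was lower in every *Smyd1-KO* heart (log2 fold change −0.83, edgeR adjusted *P*=0.0687). Among the 10 cardiomyocyte genes, highest for *Actc1*, *Myh6* and *Myh7*, edgeR called 0, with a median log2 fold change of −0.12. Without *Smyd1-KO* heart 1 the median was 0.15 and *Myh7* and *Nppa* were called higher. At an unadjusted *P* under 0.05 there were 1 higher and 1 lower, and DESeq2 called 1 higher, *Nppa*.

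**Figure D3:**
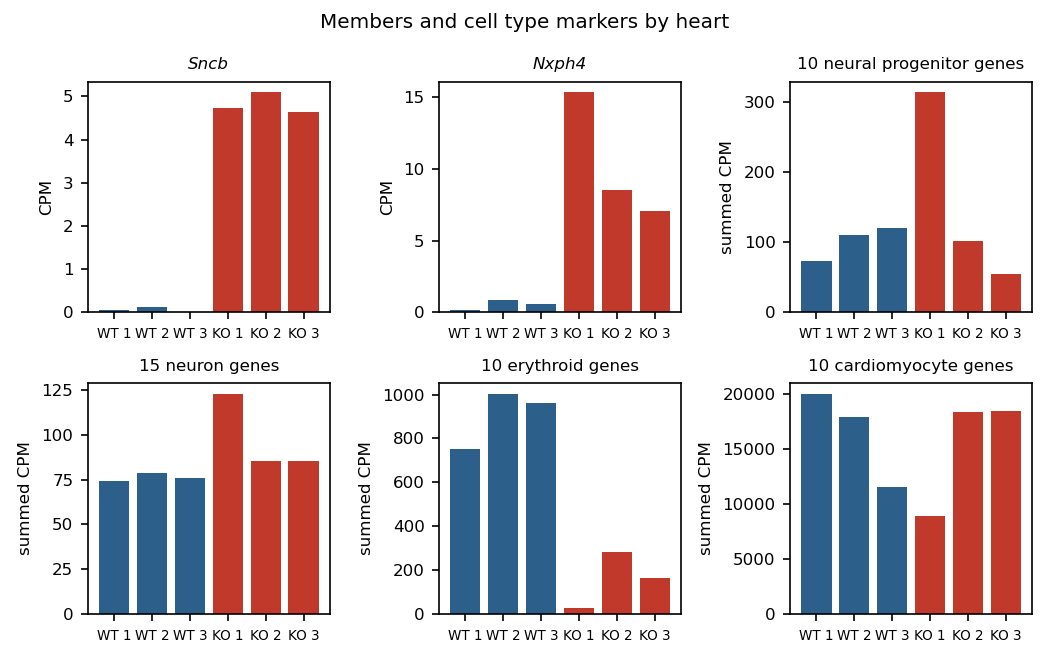
*Sncb*, *Nxph4* and the summed CPM of 4 marker lists (y axes, each from 0) in each of the 6 hearts (x axes), WT in blue and *Smyd1-KO* in red. *Sncb* is level over the 3 *Smyd1-KO* hearts at 4.64 to 5.09 CPM, whereas the neural progenitor sum reaches 313 CPM in heart 1 alone and the erythroid sum is low in all 3.

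Position on the chromosome was not part of the choice, so genes around the members were tested. Within 200 kb of the 6 members lay 47 other protein-coding genes, of which 40 were tested, 3 were called higher and 1 lower, beside the 2.86% and 1.42% of all tested genes. Around *Sncb*, 11 genes were tested and edgeR called 0, with a median log2 fold change of −0.13, and −0.08 without *Smyd1-KO* heart 1. Its nearest neighbours were *Gprin1*, a neurite outgrowth gene 8986 bases away at lower coordinates, at 4.58 against 4.48 CPM (log2 fold change 0.03), and *Eif4e1b*, 17403 bases away on the other side, with 0 reads in all hearts. *Unc5a*, a netrin receptor, had the largest value there, 1.61 (edgeR adjusted *P*=0.218), and was highest in *Smyd1-KO* heart 1 at 10.6 CPM. The difference at *Sncb* was thus not shared by a called gene within 200 kb.

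All 3 genes called higher lay around *Nxph4*, among 12 tested. *Ndufa4l2*, 8319 bases away, measured 34.0, 50.4 and 45.8 CPM in the *Smyd1-KO* group against 2.11, 2.13 and 2.04 CPM in WT hearts, a log2 fold change of 4.37 (SE 0.176). Between them lay *Shmt2*, 3029 bases from *Nxph4*, which encodes a mitochondrial enzyme of one-carbon metabolism and measured 205, 246 and 219 CPM against 109, 110 and 117 CPM. Its log2 fold change was 0.99 (SE 0.0919, edgeR adjusted *P*=0.00365), and it stayed called without any 1 heart. *Ndufa4l2* and *Shmt2* are on opposite strands and overlap by 32 bases, and the strand setting of the counting is not given in the sources used here, so reads in those bases cannot be assigned.

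*Lrp1*, an endocytic receptor 3602 bases from *Nxph4* on its other side, was 381 against 348 CPM and was not called (log2 fold change 0.13, edgeR adjusted *P*=0.687). *Nab2*, a corepressor of EGR factors 126359 bases away, was called at 36.6 against 20.4 CPM, with a log2 fold change of 0.84 (SE 0.169, edgeR adjusted *P*=0.0368). That call held in 1 of the 6 fits without a heart, that without *Smyd1-KO* heart 1. The median log2 fold change of the 12 genes was 0.63, and 0.49 without *Smyd1-KO* heart 1. In the *Smyd1-KO* hearts *Nxph4* was highest where *Ndufa4l2* was lowest, in heart 1. From heart 2 to heart 3 *Nxph4* went from 8.54 to 7.06 CPM and *Ndufa4l2* from 50.4 to 45.8 CPM. Whether their levels follow one another from heart to heart was not tested.

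**Figure D4:**
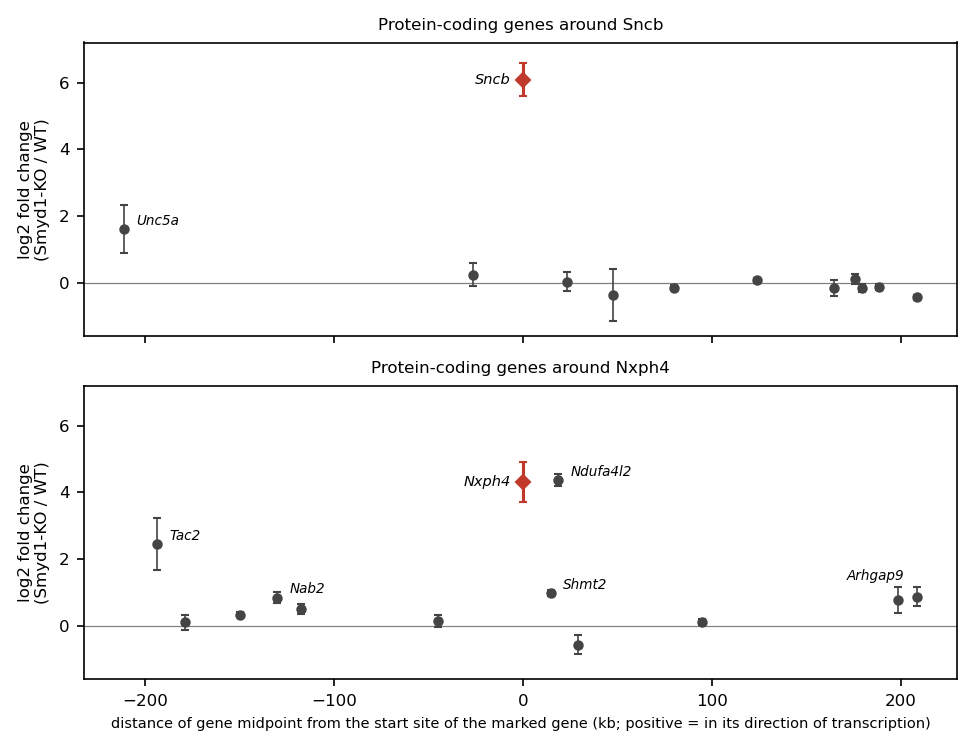
Log2 fold change of *Smyd1-KO* over WT hearts (y axis) for tested protein-coding genes around *Sncb* (top) and *Nxph4* (bottom), by distance of the gene's midpoint from the member's start site in kb (x axis). Red diamonds are the members, dots the neighbours and bars 1 SE from the edgeR fit, with genes beyond 0.8 in either direction named. *Sncb* at 6.09 stands alone, whereas *Nxph4* at 4.31 has *Ndufa4l2* at 4.37 and *Shmt2* at 0.99 beside it.

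The remaining members had few called genes around them. Near *Nxph3*, 7 genes were tested and *Slc35b1*, a nucleotide transporter of the endoplasmic reticulum, was lower, at 33.2, 34.4 and 33.5 CPM in the mutant hearts against 59.3, 53.3 and 51.7 CPM. Its log2 fold change was −0.70 (SE 0.0824, edgeR adjusted *P*=0.00747), a call lost without WT heart 2 (adjusted *P*=0.0522). The nearest genes to *Nxph3*, *Spop* at 114 against 103 CPM and *Ngfr*, the low-affinity nerve growth factor receptor, at 18.1 against 9.01 CPM, were not called. Near *Sncg*, 0 of 6 tested genes were called, and its closest neighbours were *Mmrn2*, an endothelial matrix gene 676 bases away, at 31.6 against 27.0 CPM, and *Fam25c*, at no more than 0.0336 CPM in any heart. *Nxph1* had *Ica1* alone in its window, with a log2 fold change of 0.16, and *Nxph2* had 3 tested genes with 0 calls. Its nearest neighbours were *4931423N10Rik*, with 0 reads in all hearts, and *Spopl* at 21.2 against 17.9 CPM. At an unadjusted *P* under 0.05 edgeR gave 13 of the 40 neighbours, beside 25.1% of all tested genes, with 7 around *Nxph4*, 3 around *Nxph3*, 1 around each of *Sncb*, *Sncg* and *Nxph2* and 0 around *Nxph1*. DESeq2 called 0 around *Sncb*, *Sncg*, *Nxph1* and *Nxph2*.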

How the data were processed

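Poly A RNA of 6 individual hearts was sequenced as paired-end reads. STAR, run within bcbio-nextgen against mm10, gave the alignments from which the authors deposited raw counts per gene, without normalization. They also deposited a normalized signal, in which the authors divided counts by 1 DESeq2 size factor per heart (0.830 to 1.14), used here only as a check. The counting tool, annotation release and strand setting are not given in the sources used here. Nothing shows whether embryos shared litters, so *P*-values measure the spread between hearts.

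Members and lists were chosen with earlier results of these data known. Named genes were all members and neurexins, called genes, the 3 most abundant genes of each list, nearest and called neighbours, and the 5 nearest by likeness. *Sncaip*, *Snap25*, *Syn1*, *Unc5a*, *Cplx1*, *Nfatc1*, *Prph*, *Sox1*, *Tubb3*, *Creg2* and genes that DESeq2 called alone were named after their values were seen. Some list genes are not reported here.

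Counts were tested in edgeR 4.0.16 (filterByExpr, TMM, quasi-likelihood test, no covariates) under R 4.3.3 with Benjamini-Hochberg adjustment over 19372 genes. An SE is the absolute log2 fold change divided by the square root of F. The biological coefficient of variation was 22.5%. Log2 CPM used a prior count of 2, and intervals are exact Poisson at 95%. Alternatives were DESeq2 1.42.0, RLE and upper-quartile factors, no filter, at least 10 counts in every heart, a replicate block and leaving out each heart. Scripts were tested on simulated data. Gene models were GENCODE on GRCm38, and promoters RefSeq on GRCm38.p6. Tables and plots were made in Python 3.11.15 with pandas 2.3.3, scipy 1.17.1 and matplotlib 3.10.9.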

Additional observations from a re-analysis of the deposited data

How the results depend on the processing

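*Sncb*, *Nxph4*, *Nxph3* and *Sncg* kept the direction and side of the thresholds given in the report under RLE and upper-quartile factors, DESeq2 and no filter. For *Sncb* and *Nxph4*, chosen by their rise in these hearts, passing here or below is a description and no test. With at least 10 counts in every heart *Sncb* and *Nxph4* had no value. Leaving out 1 heart gave log2 fold changes of 5.61 to 6.84 for *Sncb*, the highest without WT heart 2, and −0.40 to 0.16 for *Sncg*, positive without *Smyd1-KO* heart 1. Over those 6 fits the calls on all genes ran from 89 to 809 higher and from 8 to 447 lower, against 555 and 275 with all hearts. DESeq2 gave 1126 and 623, and no filter 691 and 334.

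Partner genes called higher numbered 1 with all hearts, 3 with DESeq2 and 0 to 1 without a heart, and 0 were called lower except 1 with DESeq2. Neural markers called higher numbered 0, 2 with no filter, 5 with DESeq2 and 0 to 3 without a heart. In the erythroid, endothelial and cardiomyocyte lists 1 was higher and 3 lower, against 3 and 8 with no filter, 3 and 8 with DESeq2, and 0 to 4 and 0 to 9 without a heart. Neighbours called numbered 3 higher and 1 lower, and without a heart 2 to 3 and 0 to 1. The causes of these changes were not tested. Per kilobase of its longest transcript *Sncb* was 3.57 in *Smyd1-KO* hearts.

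Same-numbered hearts came from different embryos, and nothing in the sources used here says whether the numbers pair them. Deviations from the group means correlated at −0.151 on average between same-numbered hearts and at 0.0733 between others. With so few hearts these values do not settle whether the numbers mark a pairing. With the replicate number as a block, 56 genes were higher and 3 lower. *Sncb* had a log2 fold change of 6.18 and passed, and *Nxph4* 4.36 and did not. Under the block the partner lists gave 0 calls higher, the erythroid, endothelial and cardiomyocyte lists 0 higher and 0 lower, and the neighbours 1 higher, *Ndufa4l2*, and 0 lower. Depth limits *Nxph1*, *Nxph2* and the WT level of *Sncb*.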
